A study of Mus musculus with 6 samples.

Results

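The levels of 10 CREB and ATF family genes were measured by single-cell RNA sequencing (scRNA-seq) in sorted mouse Achilles tendon cells: *Creb1*, *Crem*, *Atf1*, *Creb3*, *Creb3l1*, *Creb3l2*, *Atf6*, *Atf2*, *Creb5* and *Atf4*. They were matched by symbol among the 33696 genes of the count matrices, each was present once, and all 10 held enough counts for the comparisons of mesenchymal cells below. Ratios by cell type had no minimum of counts, and some low levels there rest on few. The study asked which tendon cells form heterotopic ossification (HO), bone in soft tissue, after the Achilles tendon is cut (tenotomy), and it also inhibited CREB signaling in injured mice. All cells came from tamoxifen-treated *Gli1-CreERT2*; Ai9 mice, in which a Cre recombinase driven by *Gli1* switches on a red reporter for good, so that Gli1+ denotes cells labeled at the time of tamoxifen and their progeny, not cells with a *Gli1* transcript at sampling. The labels name 24 mice, 8 uninjured, 8 at 7 days post injury (dpi) and 8 at 21 dpi, and each time point gave 1 Gli1+ and 1 Gli1- library. The age of the mice is not given in the sources used here, and the labels do not tie cells to animals.

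CREB and ATF proteins are basic leucine zipper transcription factors that bind DNA as dimers, with the cAMP response element, TGACGTCA, as the best known site. CREB1, CREM and ATF1 (here Creb1-type) are nuclear factors that protein kinase A phosphorylates when cAMP is high. CREB3, CREB3L1 and CREB3L2 (here Creb3-type) and ATF6 are made in the membrane of the endoplasmic reticulum (ER), travel to the Golgi and are cut there by the site-1 and site-2 proteases, which frees the part that enters the nucleus. CREB3L1 is known for collagen secretion by bone-forming cells, CREB3L2 for secretion by chondrocytes and ATF6 for the response to unfolded proteins. ATF4 is translated when eIF2 alpha is phosphorylated, and ATF2 and CREB5 are partners of JUN, with ATF2 activated by stress kinases. A transcript level therefore does not measure the activity of any of these proteins.

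With 1 library per condition, no difference between conditions could be tested. Levels are unique molecular identifiers (UMIs) summed over cells and scaled to a fixed total (counts per 1e6, CPM), with exact Poisson 95% intervals in brackets, and differences are log2 ratios of CPM with binomial 95% intervals, all of which cover counting error only. Unless stated otherwise, 3 values in a row follow the order uninjured, 7 dpi and 21 dpi. The 3 prime counts are not scaled by length, so levels are compared between samples and not between genes. Between 7057 and 10882 cells per library were kept, with medians of 4297 to 9775 UMIs per cell, and any pair of libraries shared 15 to 32 cell barcodes. The Gli1+ uninjured library stood apart, since 2990 of its 7057 cells were T/lymphoid-like, 456 myeloid-like and 293 mast cell-like and no other library held such a cluster. Comparisons were therefore made in mesenchymal cells (clusters of the tendon, cartilage and bone classes, or with *Pdgfra* at 100 CPM or more), which numbered 2469, 7018 and 8093 (Gli1+) and 5773, 7998 and 7495 (Gli1-) of uninjured, 7 dpi and 21 dpi. The tenocyte markers *Scx* and *Tnmd* stood at 105 and 294 CPM in Gli1+ uninjured and at 15.7 and 29.1 CPM in Gli1- uninjured mesenchymal cells, and 748 of 2469 against 226 of 5773 cells were in tenocyte-like clusters. *Gli1* itself was at 13.4, 2.16 and 4.19 CPM (Gli1+) and 8.97, 2.58 and 4.60 CPM (Gli1-), and thus did not separate the sorts. Although the labels state an equal sex distribution, cells of 1 sex made up nearly all sexed cells in 5 of the 6 libraries, male in the Gli1- uninjured and both 7 dpi libraries and female in both 21 dpi libraries, while the Gli1+ uninjured library held both. Effects of time and sex therefore cannot be told apart between Gli1- uninjured and 21 dpi or between 7 and 21 dpi.

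Windows of promoter sequence are shown for the 4 members whose RefSeq promoter (GRCm38.p6) held the full cAMP response element or its core TGACG on either strand. The promoters ran from 250 bases before to 50 after the start, and only the 250 bases before the start were searched. RefSeq promoters were at hand for 7 of the 10 genes (8 promoters, 2 of them of *Creb5*), and not for *Crem*, *Creb3l1* and *Atf6*. The full site was found in 1 of the 8, the upstream promoter of *Creb5*, and in 508 of all 32851 promoters (1.55%). The core, which every full site also contains, was found in 4 of the 8 and in 5836 of all promoters (17.8%). In the windows below, all upstream of the start and written 5′ to 3′ on the strand of the gene, capitals mark the match.
*Creb5* (chr6:53287240-53287269, plus strand, site 45 bases before the start): aagttcaggaatcccacgTGACGTCAccgg
*Creb3l2* (chr6:37442327-37442356, minus strand, site 196 bases before the start): ggcgttccccagTGACGtaaaagaccctct
*Atf1* (chr15:100227757-100227786, plus strand, site 90 bases before the start): gtgaccacgcggTGACGcagcacgccggcg
*Atf4* (chr15:80255154-80255183, plus strand, site 12 bases before the start, core on the opposite strand): ggcagcttcggctttgacCGTCAgagcttt
The promoters of *Creb1*, *Creb3* and *Atf2* and the second promoter of *Creb5* held neither string in the 250 bases searched. A match describes the letters in the window and says nothing of binding in these cells.

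*Creb3* was higher by a like amount in both sorts and at both time points. The gene lies at chr4:43562332-43567060 (GRCm38, plus strand). In Gli1+ mesenchymal cells it stood at 25.01 [23.0, 27.1], 52.9 [51.3, 54.7] and 51.03 [49.5, 52.6] CPM. In Gli1- mesenchymal cells it stood at 24.8 [23.2, 26.5], 55.0 [53.5, 56.4] and 48.8 [47.3, 50.4] CPM. Both uninjured libraries were thus low and alike (log2 ratio of Gli1+ over Gli1- 0.01 [-0.14, 0.16]), and all 4 injured libraries were higher. The log2 ratios over uninjured were 1.08 [0.96, 1.21] and 1.03 [0.90, 1.16] (Gli1+) and 1.15 [1.05, 1.25] and 0.98 [0.87, 1.08] (Gli1-).

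A higher *Creb3* level was seen within the mesenchymal classes, and in part of the clusters that time points shared. In stem cell-like cells (named from raised markers such as *Tppp3*, *Ly6a*, *Pi16* and *Dpp4*, few of which were among their leading genes) it went from 24.6 to 45.0 and 40.2 CPM (Gli1+) and from 24.2 to 47.6 and 43.6 CPM (Gli1-). Tenocyte-like cells held 24.4, 51.1 and 62.5 CPM (Gli1+) and 32.4, 56.1 and 57.3 CPM (Gli1-), so the injured libraries were the higher ones again. The Gli1+ classes were made of different clusters at each time point, since 2048 of the 2059 stem cell-like and 721 of the 741 tenocyte-like cells of 7 dpi lay in clusters with no uninjured cell. Among Gli1+ clusters shared by uninjured tendon and 21 dpi, *Creb3* went from 24.2 [20.5, 28.5] to 50.2 [40.7, 61.3] CPM in the one led by *Ptprt* and *Col22a1*. In the one led by *Cyp2f2* and *Sema3e* it went from 27.5 [21.9, 34.1] to 41.4 [38.7, 44.2] CPM. That cluster came almost wholly from 21 dpi, with 2419 cells there and 227 in uninjured tendon. In the one led by *Inmt* and *C7*, *Creb3* went from 23.8 [21.0, 26.9] to 29.8 [23.1, 37.8] CPM, where the intervals overlap. The unnamed Gli1+ cluster led by *Sorcs3* and *Unc13c*, present at all 3 time points with 239, 170 and 78 cells, held 24.1 [17.1, 32.9], 40.8 [25.3, 62.4] and 49.3 [24.6, 88.3] CPM, again with overlap. In the Gli1- cluster led by *C7* and *Gdf10*, which all 3 time points shared, *Creb3* was at 22.9, 42.5 and 32.9 CPM. The cluster led by *Grm8* and *Kcnb2*, which held 3293 of the 5773 uninjured Gli1- mesenchymal cells, had 24.8 [22.6, 27.1] CPM before injury, then 51.8 [38.4, 68.5] CPM in 218 cells of 7 dpi and 19.9 [9.52, 36.5] CPM in 150 cells of 21 dpi. At 21 dpi those few cells were not above the uninjured level.

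Endothelial-like cells, blood and lymphatic together, did not show it, although their clusters differed. Their *Creb3* level was 23.4, 20.9 and 21.0 CPM (Gli1+) and 35.1, 40.6 and 31.2 CPM (Gli1-). The log2 ratios over uninjured were -0.16 [-1.10, 0.69], -0.15 [-0.78, 0.46], 0.21 [-0.06, 0.47] and -0.17 [-0.39, 0.04], and all 4 intervals include 0. In the Gli1- cluster led by *Selp* and *Sele*, *Creb3* was at 21.7 [13.2, 33.5], 43.3 [35.0, 53.1] and 31.2 [27.4, 35.4] CPM, higher at 7 dpi, whereas the larger one led by *Slc28a2* and *Timp4* held 36.9, 39.5 and 32.7 CPM. Mural-like cells (pericytes and smooth muscle) lay between, with log2 ratios of 0.50 and 0.02 (Gli1+) and 0.39 and 0.23 (Gli1-). After each cell was thinned to 2000 UMIs, the share of mesenchymal cells with a *Creb3* UMI was 4.28%, 9.82% and 9.03% (Gli1+) and 4.98%, 10.7% and 8.04% (Gli1-). Without thinning it was 20.2%, 37.4% and 34.9%, and 14.2%, 43.6% and 33.9%. The thinned share in endothelial-like cells was 5.34%, 5.04% and 4.35%, and 6.63%, 8.89% and 5.51%, so uninjured mesenchymal cells did not exceed them.

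**Figure D1:**
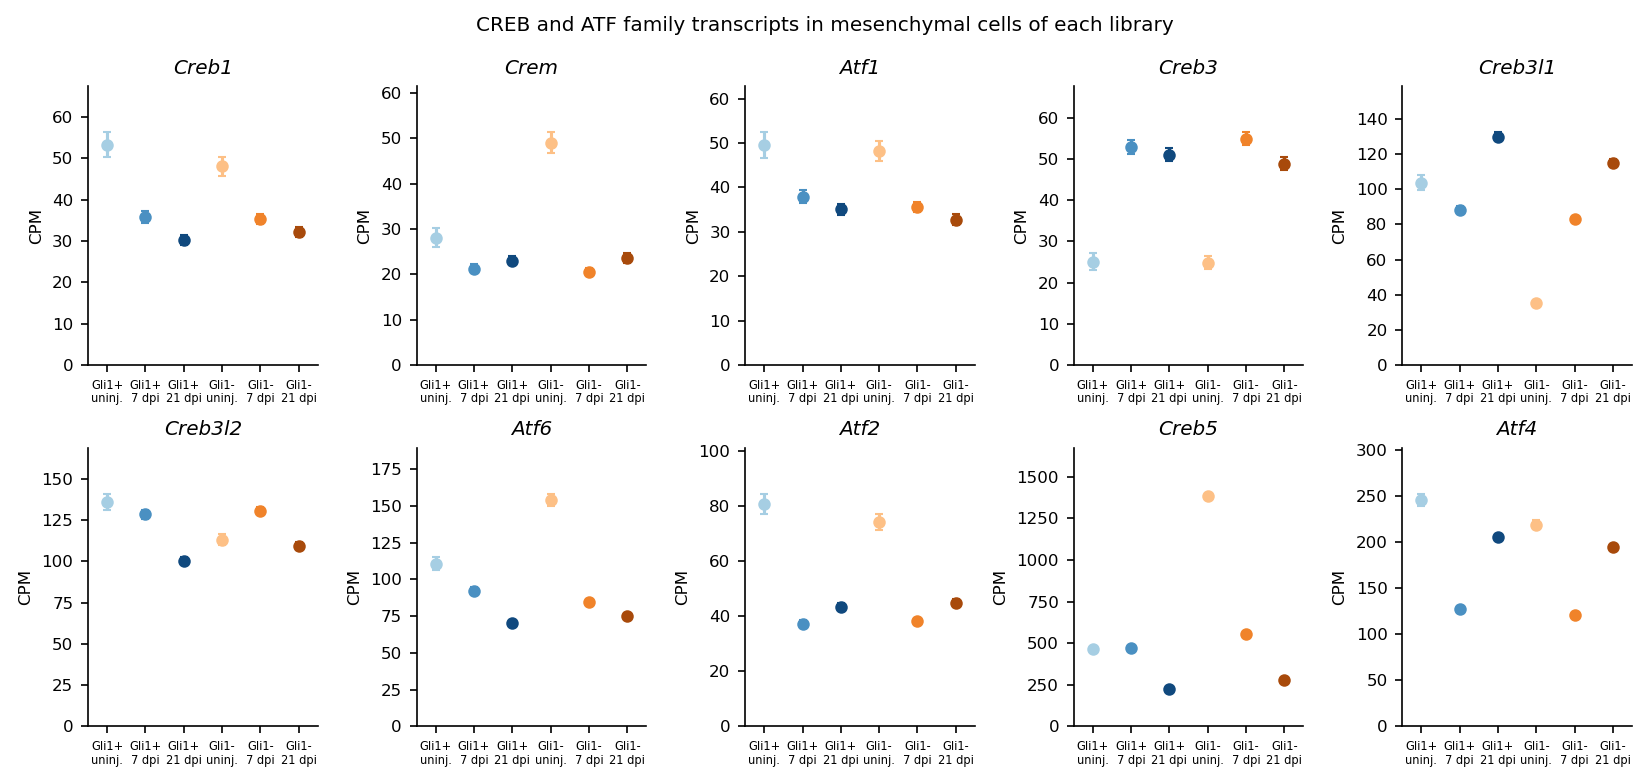
CPM of each of the 10 members in mesenchymal cells of the 6 libraries (points, with exact Poisson 95% intervals, which are often smaller than the point). *Creb3* lies near 25 CPM in both uninjured libraries and between 48.8 and 55.0 CPM in the injured ones, while *Creb3l1* and *Creb5* differ between the sorts in uninjured tendon and come closer after injury.

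*Creb3l1* (chr2:91982328-92024502, minus strand) differed between the sorts before injury. Uninjured Gli1+ mesenchymal cells held 103.8 [99.7, 108.0] CPM and uninjured Gli1- cells 35.0 [33.1, 36.9] CPM, a log2 ratio of 1.57 [1.47, 1.67]. At 7 dpi the levels were 88.3 [86.1, 90.5] and 82.9 [81.2, 84.8] CPM, and at 21 dpi 129.8 [127.3, 132.3] and 114.9 [112.5, 117.3] CPM. The Gli1- level thus met the Gli1+ level by 7 dpi, and both sorts were higher at 21 dpi than at 7 dpi, by log2 ratios of 0.56 [0.51, 0.60] and 0.47 [0.43, 0.51]. Over uninjured, the log2 ratios were -0.23 [-0.30, -0.17] and 0.32 [0.26, 0.39] (Gli1+) and 1.25 [1.16, 1.33] and 1.72 [1.63, 1.80] (Gli1-). The Gli1+ value at 7 dpi turned to 0.07 under trimmed mean of M values (TMM) scaling and to 0.78 over all cells, and the Gli1+ value at 21 dpi was 0.78 under TMM scaling, past the fold, and -0.03 without the clusters that came almost wholly from 1 library.

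By class, *Creb3l1* in uninjured tendon was highest in tenocyte-like cells, which held 134.2 CPM (Gli1+) and 70.1 CPM (Gli1-). Stem cell-like cells held 79.1 and 34.0 CPM. The stem cell-like class was made of unlike clusters in the sorts, since 1168 of its 1395 uninjured Gli1+ cells lay in the cluster led by *Inmt* and *C7* (85.4 CPM of *Creb3l1*), whereas the Gli1- cluster led by *C7*, *Gdf10* and *Inmt* stayed unnamed and outside the class. In the Gli1+ library, tenocyte-like cells were low at 7 dpi, with 44.2 CPM (log2 ratio over uninjured -1.60 [-1.84, -1.37]), and stood at 126.9 CPM at 21 dpi. These cells lay in different clusters at each time point, 685 of the 748 uninjured ones in a cluster led by *Ptprt* and *Col22a1*, 721 at 7 dpi in one led by *Vat1l* and *Syngr1* and 3214 at 21 dpi in one led by *Eno3* and *Matn4*. Within the *Ptprt* and *Col22a1* cluster, *Creb3l1* was at 135.9 [126.9, 145.5] CPM in uninjured tendon and 90.6 [77.7, 105.1] CPM in the 415 cells of 21 dpi, so it was lower there. Gli1- tenocyte-like cells held 70.0 and 118.4 CPM at 7 and 21 dpi. The *Grm8* and *Kcnb2* cluster of uninjured Gli1- tendon had 23.4 [21.3, 25.7] CPM, and the *C7* and *Gdf10* cluster 50.7 [46.1, 55.7] CPM there, 61.6 [56.2, 67.3] at 7 dpi and 48.8 [41.5, 57.0] at 21 dpi. In this last cluster the uninjured and 21 dpi intervals overlap, while stem cell-like *Creb3l1* of these libraries went from 34.0 to 54.7 and 86.7 CPM.

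At 21 dpi *Creb3l1* was high in the clusters led by *Saa3*. A cluster led by *Saa3*, *Mmp10*, *Mmp13* and *Il11* held 173 [166, 180] CPM in 811 Gli1+ cells, and its Gli1- counterpart, led by *Saa3*, *Grem1* and *Mmp12*, held 144 [137, 150] CPM in 725 cells. Osteochondral-like cells, with *Col2a1*, *Col10a1* and collagen IX genes among their leading genes, held 154 CPM (Gli1+) and 104 CPM (Gli1-). The latter was below the 114.9 CPM of all mesenchymal cells of its library. This class joined the cartilage and bone marker lists. The bone genes *Bglap* and *Ibsp* were among the leading genes of its Gli1+ cluster but not of its Gli1- cluster, so the sorts were not alike in it. In the Gli1- libraries *Bglap* was among the leading genes of the tenocyte-like cluster that held 2649 cells of 21 dpi. With finer clustering (Leiden resolution 1.0) the Gli1- osteochondral-like cluster held 401 cells of 21 dpi, against 203 here. Whether Gli1- tenocyte-like cells of 21 dpi include bone-like cells was not tested. Mural-like cells were also highest at 21 dpi, with 23.9, 32.7 and 60.4 CPM (Gli1+) and 9.61, 36.6 and 87.0 CPM (Gli1-), a log2 ratio of 3.18 [2.68, 3.72] at 21 dpi in the latter. Endothelial-like cells stayed between 8.05 and 15.3 CPM in all 6 libraries, and T/lymphoid-like cells were at 1.81 CPM. In the Gli1+ uninjured library, 90.8% of all *Creb3l1* UMIs lay in mesenchymal cells, which gave 36.8% of its UMIs.

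*Creb3l1* was the only member with a gap between the sexes in the single library that held both. In Gli1+ uninjured mesenchymal cells it was at 135 CPM in cells with male and 92.0 CPM in cells with female transcripts (log2 ratio of male over female 0.56 [0.43, 0.69]), whereas for the other 9 members this ratio lay between -0.12 and 0.13. The male cells of the Gli1- uninjured library were at 34.2 CPM, so the gap between sorts was present among male cells. Within 1 sex, the *Creb3l1* log2 ratio over uninjured was -0.56 (Gli1+) and 1.28 (Gli1-) in male cells at 7 dpi, where all cells gave -0.23 and 1.25, and 0.49 in female Gli1+ cells at 21 dpi, where all cells gave 0.32.

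*Creb3l2* changed little. Its level was 135.9, 128.4 and 100.4 CPM (Gli1+) and 113.0, 130.6 and 109.3 CPM (Gli1-), and its log2 ratios over uninjured ran from -0.44 (Gli1+, 21 dpi) to 0.21 (Gli1-, 7 dpi). Under TMM scaling, 3 of these 4 values changed sign, so no direction is given. The osteochondral-like cells held the highest *Creb3l2* levels of the named mesenchymal classes at 21 dpi, 155.8 CPM (Gli1+) and 215.9 CPM (Gli1-), against 92.2 and 111.4 CPM in stem cell-like and 101.3 and 110.3 CPM in tenocyte-like cells of the same libraries.

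The Creb1-type genes were lower in all 4 injured libraries. *Creb1*, the founding member, stood at 53.3 [50.3, 56.3], 35.8 [34.5, 37.3] and 30.1 [29.0, 31.4] CPM (Gli1+) and 48.1 [45.9, 50.3], 35.4 [34.2, 36.6] and 32.2 [30.9, 33.5] CPM (Gli1-). *Atf1* ran closely beside it, with 49.5, 37.9 and 35.0 CPM and with 48.3, 35.6 and 32.7 CPM. Their log2 ratios over uninjured lay between -0.38 and -0.82, and the uninjured library was the highest of its sort for both genes. Under TMM scaling these ratios stayed below 0 but shrank, to -0.27, -0.36, -0.34 and -0.40 for *Creb1* and to -0.09, -0.03, -0.34 and -0.38 for *Atf1* (Gli1+ 7 and 21 dpi, Gli1- 7 and 21 dpi), all within the fold. *Crem*, which also encodes the short cAMP-induced repressor ICER, was the exception between sorts, with 28.0, 21.3 and 23.0 CPM (Gli1+) and 48.9, 20.5 and 23.6 CPM (Gli1-). Its log2 ratios were -0.40 and -0.28 (Gli1+) and -1.26 [-1.35, -1.16] and -1.05 [-1.15, -0.96] (Gli1-), and the 2 Gli1+ values turned to 0.10 without the clusters from almost 1 library (7 dpi) and to 0.18 under TMM scaling (21 dpi). The high *Crem* level of uninjured Gli1- cells lay in the *Grm8* and *Kcnb2* cluster, at 65.6 [62.1, 69.3] CPM, against 26.8 [23.0, 30.9] CPM in the stem cell-like cells of that library.

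Several other measures moved with time in the same mesenchymal cells. The immediate early genes *Jun* and *Fos* were at 6210 and 7365 CPM in Gli1+ uninjured and at 6679 and 7027 CPM in Gli1- uninjured cells, and between 2752 and 4617 CPM in all injured libraries. Genes that span over 100 kb gave 17.0% of the UMIs of both uninjured and 12.4% to 13.5% of those of the injured libraries. At 7 dpi over uninjured, the median log2 ratio of all genes was 0.06 for genes under 20 kb and -0.43 for genes of 50 to 100 kb in Gli1+ cells, and 0.13 and -0.29 in Gli1- cells. *Creb3* spans 4.7 kb, *Creb1* 71.9 kb, *Crem* 71.7 kb and *Atf1* 33.4 kb, so that *Creb3* at 1.08 and 1.15 stood above the median of genes of its span. At 7 dpi *Creb1* was at -0.57 and -0.44 and *Crem* at -0.40 and -1.26, the last well below the median of its span. *Atf1*, at -0.38 and -0.44, was below the medians of -0.20 and -0.11 of genes of 20 to 50 kb. The part of gene span or of the immediate early response in these results was not tested.

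**Figure D2:**
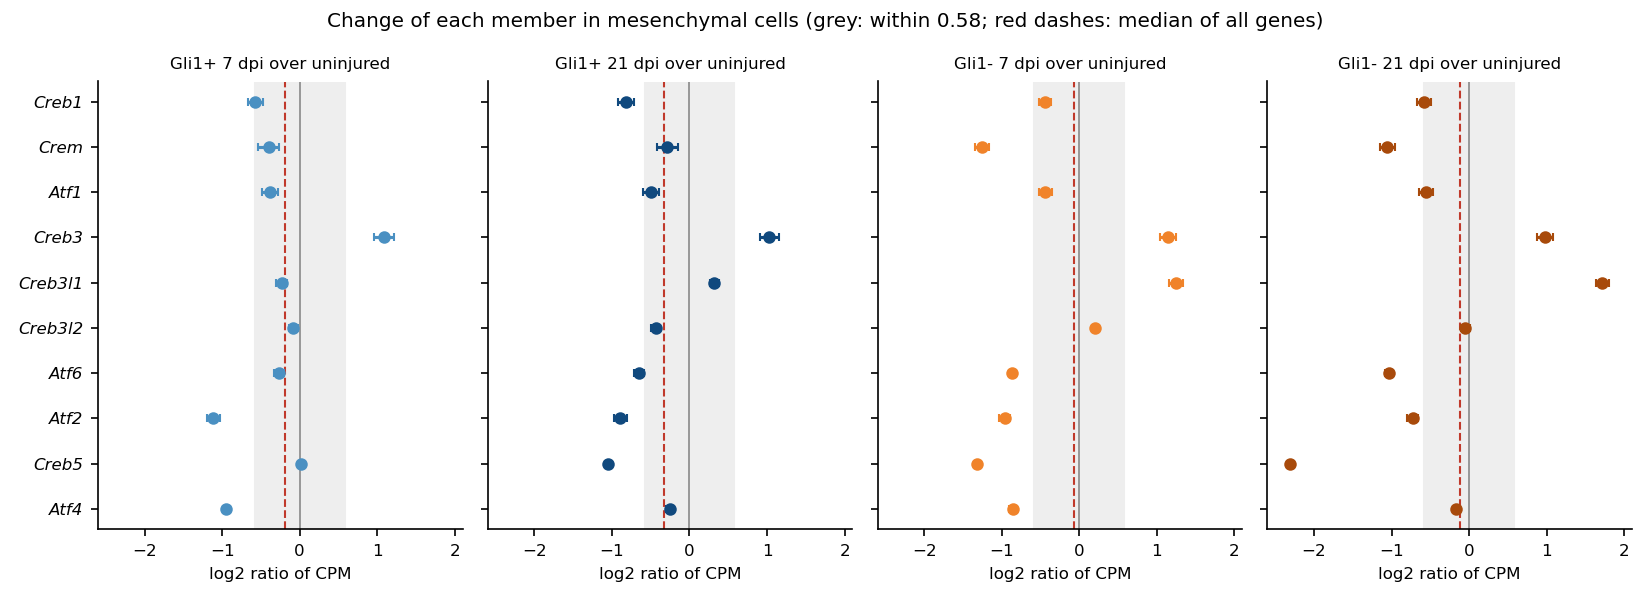
Log2 ratio of CPM over the uninjured library of the same sort for each member in mesenchymal cells, with binomial 95% counting intervals. The grey band marks ratios within 0.58 and the red dashes the median of all genes (-0.18, -0.33, -0.07 and -0.11), and *Creb3* is the member to the right of the band in all 4 panels.

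The ratio of summed Creb3-type to summed Creb1-type UMIs sets the membrane-bound factors other than *Atf6* against the cAMP-regulated ones. In mesenchymal cells it was 2.03, 2.84 and 3.19 (Gli1+) and 1.19, 2.93 and 3.08 (Gli1-) of uninjured, 7 dpi and 21 dpi. The log2 change over uninjured was 0.49 [0.41, 0.56] and 0.66 [0.58, 0.73] (Gli1+) and 1.30 [1.24, 1.37] and 1.38 [1.31, 1.44] (Gli1-). Clusters shared by time points did not all show this. In Gli1+ cells the ratio in uninjured tendon and at 21 dpi was 2.29 [2.11, 2.48] and 2.20 [1.87, 2.58] in the *Ptprt* and *Col22a1* cluster. In the *Inmt* and *C7* cluster it was 1.89 [1.77, 2.02] and 2.09 [1.78, 2.45]. In the *Sorcs3* and *Unc13c* cluster it was 2.13, 1.84 and 1.43 over the 3 time points, with overlapping intervals. A clearly higher ratio at 21 dpi was seen only in Gli1+ clusters that came almost wholly from that library. It was 1.54 [1.36, 1.76] and 2.77 [2.63, 2.92] in the *Cyp2f2* and *Sema3e* cluster, with 227 uninjured cells and 2419 of 21 dpi. In the *Eno3* and *Matn4* cluster, with 63 uninjured cells and 3214 of 21 dpi, it was 1.70 [1.29, 2.26] and 3.43 [3.29, 3.58]. In Gli1- cells it was higher after injury in the *C7* and *Gdf10* cluster, at 1.31 [1.21, 1.42], 2.35 [2.15, 2.57] and 1.78 [1.57, 2.03], in the *Grm8* and *Kcnb2* cluster, at 1.01 [0.97, 1.07], 2.15 [1.73, 2.68] and 1.91 [1.36, 2.70], and in the stem cell-like *Sema3e* and *Sv2c* cluster, at 1.36 [1.25, 1.49], 2.07 [1.77, 2.43] and 2.66 [2.46, 2.89]. The Gli1- tenocyte-like cluster led by *Ptx4* and *Chodl* had 1.88 [1.55, 2.29], 2.24 [1.89, 2.67] and 2.38 [1.95, 2.92], with overlap. Which of the sums carried the shift in the Gli1+ libraries depended on the scaling. By CPM the Creb1-type sum was lower (130.8, 94.98 and 88.2 CPM, log2 ratios of -0.46 and -0.57) and the Creb3-type sum nearly level (264.7, 269.6 and 281.2 CPM, log2 ratios of 0.03 and 0.09). Under TMM scaling the same log2 ratios were -0.16 and -0.11 for the Creb1-type and 0.33 and 0.55 for the Creb3-type sum. In the Gli1- libraries both sums moved under either scaling, the Creb1-type one from 145.3 to 91.5 and 88.5 CPM and the Creb3-type one from 172.8 to 268.5 and 273.0 CPM. Over all cells of the Gli1+ libraries the ratio went from 0.48 to 2.38 and 2.69, a log2 change of 2.30 and 2.48, with the immune cells in the uninjured sum.

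The same ratio was higher after injury in several other cell types. In endothelial-like cells it was 0.60, 0.95 and 1.10 (Gli1+) and 0.69, 1.14 and 1.27 (Gli1-), with all 4 log2 changes above 0. The Gli1- class changed in make-up, from 3390 to 722 and 816 cells in the cluster led by *Slc28a2* and *Timp4* and from 125 to 256 and 810 cells in the one led by *Selp* and *Sele*. Within the first the ratio was nearly level, at 0.64 [0.60, 0.69], 0.72 [0.60, 0.87] and 0.72 [0.60, 0.87], within the latter it was 0.93 [0.72, 1.201], 1.57 [1.34, 1.84] and 1.45 [1.33, 1.57], and in lymphatic endothelial-like cells it was 1.43, 1.21 and 1.16 with overlapping intervals. In the whole Gli1- endothelial-like class, *Creb1* went from 91.7 CPM in uninjured tendon to 61.3 CPM at 7 dpi, and *Creb3l2* from 80.5 to 108.7 CPM. In mural-like cells the ratio was 0.79, 1.35 and 1.23 (Gli1+) and 0.67, 1.32 and 1.60 (Gli1-). In epidermal-like cells of the Gli1+ libraries it was 0.23, 0.55 and 0.39, and their *Creb3l1* level ran from 3.76 to 9.91 CPM. Some cells had intervals that include 0, namely tenocyte-like cells at 7 dpi, with log2 changes of -0.10 [-0.30, 0.11] (Gli1+) and 0.26 [-0.04, 0.56] (Gli1-), Gli1- cells of unnamed clusters outside the mesenchyme, with 0.05 [-0.39, 0.50] and -0.12 [-0.55, 0.30], and Gli1- Schwann-like cells at 7 dpi, with 0.96 [-0.09, 2.02]. At 21 dpi the osteochondral-like cells had the highest ratio of the named types, 5.06 [4.48, 5.74] (Gli1+) and 5.17 [4.50, 5.96] (Gli1-), and in uninjured Gli1+ tendon the T/lymphoid-like cells had the lowest, 0.072 [0.067, 0.078].

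**Figure D3:**
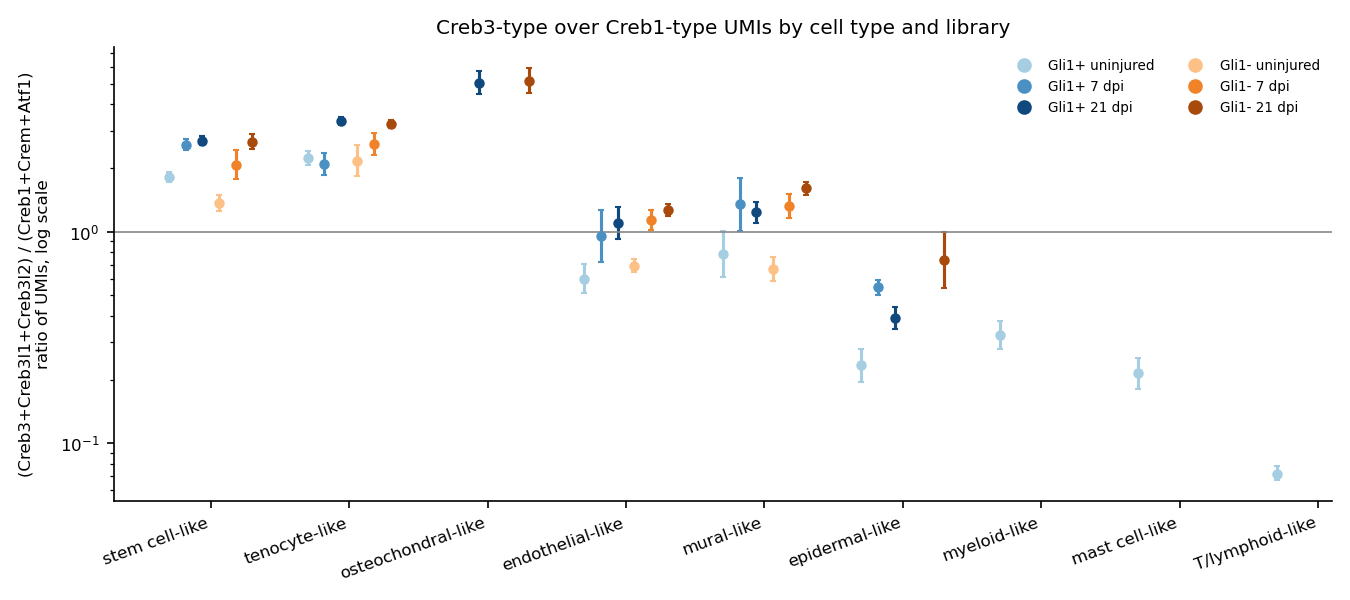
Ratio of Creb3-type to Creb1-type UMIs (log axis) by cell type and library, with 95% counting intervals; the grey line marks a ratio of 1. The 2 osteochondral-like points of 21 dpi are near 5 and the T/lymphoid-like point of uninjured Gli1+ tendon is below 0.1.

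*Atf6*, the sensor of unfolded proteins among the members, was lower after injury by CPM in both sorts. It stood at 110.7, 92.3 and 70.6 CPM (Gli1+) and 154.0, 84.7 and 75.1 CPM (Gli1-), with log2 ratios of -0.26, -0.65, -0.86 and -1.04. Under TMM scaling the Gli1+ values became 0.04 and -0.19, so that neither passed the fold, and the Gli1- values -0.76 and -0.86. *Atf6* spans 163.1 kb, and the median of genes over 100 kb was -0.52, -0.63, -0.35 and -0.37 in the same 4 comparisons. In endothelial-like cells it was not lower, with 100.9, 119.6 and 101.4 CPM (Gli1+) and 88.4, 119.5 and 107.7 CPM (Gli1-).

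*Atf2* was lower at every injured time point, under TMM scaling too. Its levels were 80.8, 37.3 and 43.6 CPM (Gli1+) and 74.3, 38.2 and 44.8 CPM (Gli1-), and the log2 ratios were -1.11 [-1.20, -1.03], -0.89, -0.96 and -0.73. Both sorts thus gave nearly the same values at each time point, lowest at 7 dpi. Under TMM scaling the log2 ratios were -0.81, -0.43, -0.86 and -0.55, so that both values of 21 dpi came within the fold. The median for genes of 50 to 100 kb, the span class of *Atf2* (76.1 kb), was -0.43, -0.53, -0.29 and -0.30.

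*Atf4* was low at 7 dpi and back near its uninjured level at 21 dpi. Gli1+ mesenchymal cells held 245.5 [239.2, 251.9], 127.6 [125.0, 130.3] and 205.4 [202.3, 208.5] CPM, and Gli1- cells 218.5 [213.8, 223.3], 120.3 [118.2, 122.5] and 194.5 [191.4, 197.7] CPM. The 2 libraries of 7 dpi were the lowest, and the log2 ratio of 21 over 7 dpi was 0.69 in both sorts. Under TMM scaling the log2 ratios over uninjured were -0.64 and 0.20 (Gli1+) and -0.76 and 0.01 (Gli1-). The low level was seen in most cell types, with log2 ratios at 7 dpi of -0.996 and -0.45 in endothelial-like, -1.22 and -0.82 in mural-like, -0.96 and -0.58 in stem cell-like and -0.84 and -0.63 in tenocyte-like cells (Gli1+ first), and of -0.62 in Gli1+ epidermal-like and -0.92 [-1.49, -0.39] in Gli1+ skeletal muscle-like cells. It was not seen in Gli1- cells of unnamed clusters outside the mesenchyme, at -0.05 [-0.41, 0.31], or in the 53 Gli1- Schwann-like cells, at 0.08 [-0.70, 0.83]. These sets overlap in markers, as 188 of the 224 unnamed ones at 7 dpi lay in a cluster with all 5 Schwann markers raised but none among its 10 leading genes. *Atf4* spans only 2.4 kb, a class whose median at 7 dpi was above 0. *Malat1*, a nuclear RNA, was also lowest at 7 dpi, with 27245, 13388 and 19765 CPM (Gli1+) and 16836, 10749 and 18778 CPM (Gli1-). The part of *Malat1* or of gene span in the *Atf4* result was not tested.

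*Creb5* (chr6:53287270-53700376, plus strand) differed most between samples. It stood at 463 [454, 472], 470 [465, 475] and 223 [220, 226] CPM in Gli1+ mesenchymal cells and at 1383 [1371, 1395], 556 [551, 560] and 279 [275, 283] CPM in Gli1- cells. The uninjured Gli1- library was far above the rest, with a log2 ratio of Gli1+ over Gli1- of -1.58 [-1.61, -1.55], and both libraries of 21 dpi were the lowest of their sort. The log2 ratios over uninjured were 0.02 [-0.01, 0.05] and -1.05 [-1.09, -1.02] (Gli1+) and -1.32 [-1.33, -1.30] and -2.31 [-2.33, -2.29] (Gli1-). Without clusters almost wholly from 1 library, the Gli1+ value at 7 dpi was -0.55, and under TMM scaling the Gli1+ values were 0.32 and -0.59. The share of mesenchymal cells with a *Creb5* UMI after thinning was 38.7%, 47.8% and 27.9% (Gli1+) and 74.3%, 54.3% and 34.0% (Gli1-), against 62.0%, 79.9% and 56.2% and 86.6%, 87.1% and 62.5% before it, and 10.1% in thinned endothelial-like cells of the Gli1+ uninjured library.

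*Creb5* marked stem cell-like over tenocyte-like and osteochondral-like cells. Stem cell-like cells held 662, 836 and 416 CPM (Gli1+) and 2204, 1919 and 863 CPM (Gli1-), in unlike clusters, and tenocyte-like cells 133, 311 and 173 CPM and 294, 407 and 195 CPM. Osteochondral-like cells at 21 dpi were at 51.7 and 34.7 CPM, the lowest of the mesenchymal classes. Between clusters of like leading genes the uninjured sorts were closer, with 636 [621, 651] CPM in the Gli1+ cluster led by *Inmt* and *C7* and 752 [734, 771] CPM in the Gli1- cluster led by *C7* and *Gdf10*. Clusters differed in the change with time. In the *C7* and *Gdf10* cluster of the Gli1- libraries *Creb5* was 752 [734, 771], 753 [734, 772] and 450 [427, 473] CPM, that is level at 7 dpi and lower at 21 dpi, whereas the *Grm8* and *Kcnb2* cluster went from 1486 [1469, 1504] to 726 [673, 782] and 600 [534, 671] CPM. Outside the mesenchyme, myeloid-like cells of uninjured Gli1+ tendon held 636 CPM and T/lymphoid-like cells 8.79 CPM, and endothelial-like cells 139, 225 and 55.8 CPM and 147, 214 and 74.2 CPM, highest at 7 dpi in both sorts. *Creb5* is the longest member gene (413.1 kb), and the median of genes over 100 kb in uninjured Gli1+ over Gli1- cells was 0.18. The part of gene span in the *Creb5* levels was not tested.

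**Figure D4:**
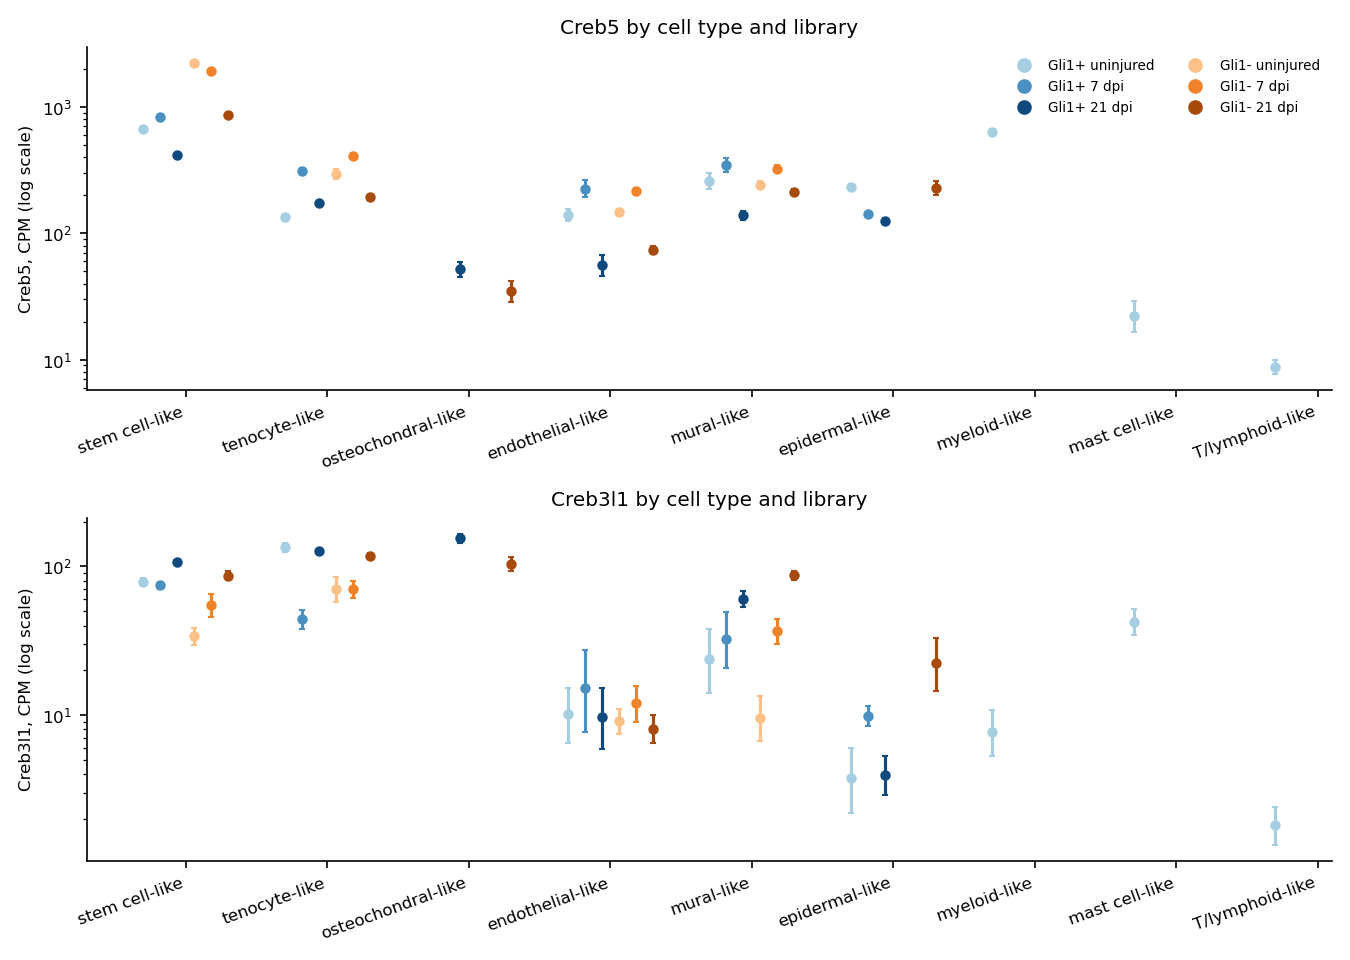
CPM (log axis) of *Creb5* (top) and *Creb3l1* (bottom) by cell type and library, with exact Poisson 95% intervals. *Creb5* is highest in Gli1- stem cell-like cells, a class made of other clusters than in Gli1+ cells, and low in osteochondral-like cells, where *Creb3l1* is at 154 CPM (Gli1+) and 104 CPM (Gli1-). The Gli1+ osteochondral-like cluster has bone genes among its leading genes and the Gli1- one does not. In the Gli1- libraries *Bglap* is among the leading genes of a tenocyte-like cluster.

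Between the sorts, 3 of the 10 members differed by over 0.58 on the log2 scale in uninjured mesenchymal cells (*Creb3l1*, *Creb5* and *Crem*), where 31.4% of all 14860 genes with at least 50 UMIs did so. At 7 dpi none did (11.2% of all genes) and at 21 dpi none did (6.87%). Over uninjured, 3 members passed this fold at 7 dpi in the Gli1+ libraries (55.5% of all genes) and 5 at 21 dpi (51.0%), and 7 (50.4%) and 6 (48.8%) in the Gli1- libraries. At 21 over 7 dpi, 2 members passed it in each sort, *Atf4* and *Creb5* (30.6% and 26.7% of all genes). No count is read as a result about the members against these shares. The median log2 ratio of the members over uninjured was -0.32, -0.47, -0.65 and -0.57, against -0.18, -0.33, -0.07 and -0.11 for all genes. The 2 time points of a sort share its uninjured library, so they are not independent of each other.

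In the Gli1+ uninjured library the T/lymphoid-like cells, which gave 39.7% of its UMIs, held 76.7% of the *Crem*, 65.7% of the *Atf6*, 62.5% of the *Creb1* and 48.8% of the *Atf1* UMIs. Over all cells of the Gli1+ libraries, *Crem* went from 91.8 to 19.4 and 22.2 CPM and *Atf6* from 239.1 to 89.4 and 72.9 CPM, against 28.0, 21.3 and 23.0 CPM and 110.7, 92.3 and 70.6 CPM in mesenchymal cells. All 10 members passed the fold over all cells at 7 dpi (60.7% of all genes). Within the T/lymphoid-like cells, *Atf6* spread widely, with 766 [749, 784] CPM in the cluster led by *Il17a*, *Scart1* and *Il23r* (1056 cells), 277 [266, 289] in the one led by *Ctla4* and *Cd4* (1003 cells), 85.0 [75.8, 95.03] in the one led by *Ccl5*, *Xcl1* and *Eomes* (445 cells) and 16.1 [12.4, 20.6] in the one led by *Cd8b1* and *Lef1* (486 cells). *Crem* was at 241, 176, 120 and 77.2 CPM and *Creb1* at 219, 141, 146 and 98.4 CPM in the same order, so the *Il17a* cluster was highest and the *Cd8b1* cluster lowest for all 3 genes. *Atf1* varied far less, from 65.6 to 87.0 CPM. T and lymphoid markers summed to 32.6 CPM over their 6 genes in the mesenchymal cells of this library, with none at 0, against 2415 CPM in the T/lymphoid-like cells and 0.22 to 5.59 CPM in the mesenchymal cells of the other libraries. The part of these markers in the mesenchymal *Creb1*, *Crem* and *Atf6* levels of Gli1+ uninjured tendon was not tested.

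**Figure D5:**
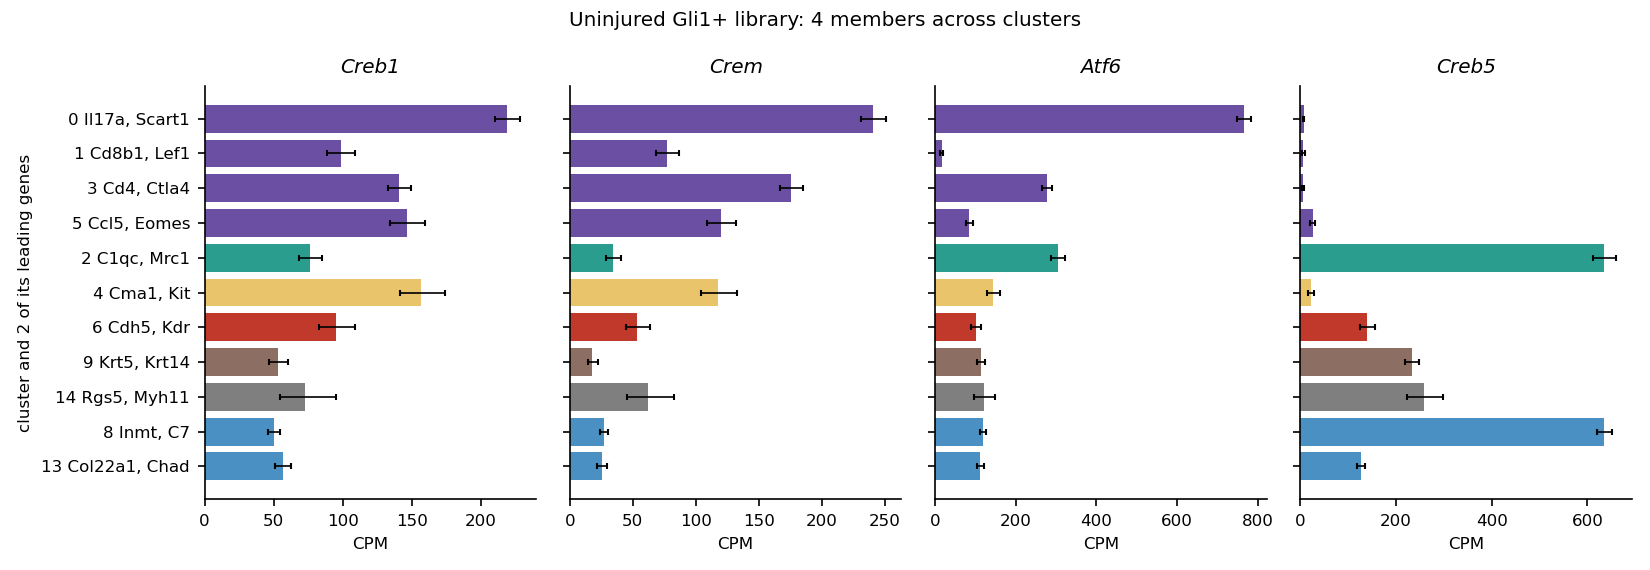
CPM of *Creb1*, *Crem*, *Atf6* and *Creb5* in clusters of the Gli1+ uninjured library (bars from 0, exact Poisson 95% intervals; violet T/lymphoid-like, green myeloid-like, yellow mast cell-like, red endothelial-like, brown epidermal-like, grey mural-like, blue mesenchymal). *Atf6* runs from 16.1 CPM in the *Cd8b1* cluster to 766 CPM in the *Il17a* cluster, while *Creb5* is high in the myeloid-like and the *Inmt* and *C7* mesenchymal cluster.

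Genes that act with the members were counted in mesenchymal cells by lists, past the same fold of 0.58, where 22.1%, 14.4%, 23.5% and 20.7% of all genes were higher and 33.4%, 36.5%, 26.9% and 28.0% lower (Gli1+ 7 and 21 dpi, Gli1- 7 and 21 dpi). Of 5 CREB coactivators, 4, 4, 4 and 3 were lower and none higher, and medians of -1.09, -0.99, -0.90 and -0.75. *Crtc3*, a cAMP-regulated coactivator, went from 113.8 to 39.7 and 51.4 CPM (Gli1+) and from 123.8 to 41.6 and 52.2 CPM (Gli1-). At 7 dpi in Gli1+ cells, *Crtc2* was at -1.59 and the acetyltransferase genes *Ep300* and *Crebbp* were at -1.09 and -0.88, while *Crtc1* was within the fold in all 4 comparisons, at -0.21, -0.37, 0.16 and 0.05. The counts of this and the following lists are by CPM. TMM scaling raises all these log2 ratios by 0.30, 0.46, 0.10 and 0.18, which brings some of the lower genes within the fold. One of them is *Crebbp* at 21 dpi in Gli1+ cells, at -0.79 by CPM.

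Genes for the cutting and transport of membrane-bound factors seldom passed the fold. Of the 6 analysed (*Hm13* was not analysed here), 1 was lower at 7 dpi in Gli1+ cells, the site-2 protease gene *Mbtps2* at -0.71 [-0.88, -0.55], and none passed the fold in the other comparisons. *Mbtps1*, the site-1 protease gene, was at -0.48, and *Sec24d*, a gene of ER-to-Golgi transport, at 0.24 [0.20, 0.29], both at 7 dpi in Gli1+ cells, where *Sec23a* was at 0.15, *Sel1l* at -0.08 and *Scap* at -0.32. *Sec24d* was on the other side of 0 at 21 dpi, at -0.45 (Gli1+) and -0.57 [-0.61, -0.53] (Gli1-), just short of the fold. The 6 genes of eIF2 alpha kinases and phosphatase subunits counted 1 higher and 3 lower at 7 dpi in Gli1+ cells, with the kinase gene *Eif2ak2* at 0.63, *Ppp1r15a* at -1.10, *Ppp1r15b* at -0.67 and the ER kinase gene *Eif2ak3* at -0.62, while *Eif2ak4* at 0.21 and *Eif2ak1* at -0.04 were within the fold. They counted 0 higher and 2 lower at 21 dpi, and in Gli1- cells 1 and 2, and 0 and 2.

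Target genes of *Atf4* and *Atf6* included both higher and lower ones. Of 16 *Atf4* targets, 6, 9, 8 and 7 were higher and 4, 3, 4 and 4 lower, with medians of 0.22, 0.64, 0.53 and 0.45, and *Atf4* itself was at -0.94, -0.26, -0.86 and -0.17. The higher ones at 7 dpi in Gli1+ cells were led by genes of serine, folate and asparagine synthesis, *Psat1* at 2.01, *Aldh1l2* at 1.70 and *Asns* at 1.52, and the lower ones by *Vldlr* at -2.21, *Trib3* at -1.65 and the cystine transporter gene *Slc7a11* at -1.40. Of 13 *Atf6* targets, 7 dpi showed 8 higher and 2 lower (Gli1+) and 8 higher and 1 lower (Gli1-), and 21 dpi 3 higher and 1 lower (Gli1+) and 4 higher and 0 lower (Gli1-). *Pdia6*, an ER folding enzyme gene, went from 121 to 402 and 187 CPM (Gli1+) and from 138 to 399 and 185 CPM (Gli1-), and *Manf* from 159 to 425 and 271 CPM and from 145 to 417 and 280 CPM, so both were highest at 7 dpi, when *Atf6* was at 92.3 and 84.7 CPM. *Pdia4*, of the same enzyme family as *Pdia6*, was the third highest at 7 dpi in Gli1+ cells, at 1.26. *Herpud1* at -0.74, *Syvn1* at -0.73 and *Dnajc3* at -0.51 were the lowest at 7 dpi in Gli1+ cells, and *Hspa5*, the main ER chaperone gene, was at -0.08.

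Of 14 other family members, 3, 2, 4 and 4 were higher and 7, 6, 6 and 5 lower, with medians of -0.58, -0.48, -0.49 and -0.42. At 7 dpi in Gli1+ cells the highest ratios were those of *Creb3l3* (2.48 [1.83, 3.21], from 0.851 to 4.76 CPM), *Atf6b* (0.84) and *Creb3l4* (0.60 [-0.10, 1.38]), the first and last at very low levels. The lowest were those of *Crebl2* (-2.07), *Batf* (-1.97, from 4.64 to 1.18 CPM, also very low) and *Crebrf* (-1.58). *Atf3*, an immediate early member, was at 1388, 842 and 1025 CPM (Gli1+) and 2123, 912 and 802 CPM (Gli1-), high in uninjured cells like *Jun* and *Fos*.

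The genes whose log2(CPM + 1) ran most like each member over the 29 sums of a library and type with at least 100 cells are given as a description, since these sums share libraries and their composition. *Creb3* was most like *1600012H06Rik* (Pearson r = 0.927), *P3h1*, a collagen prolyl hydroxylase gene (0.895), and *Chpf2*, a chondroitin synthesis gene (0.889). *Creb3l1* was most like *Hoxa11* (0.880), *Gpr153* (0.863) and *Inhba* (0.862), and *Creb3l2* like *Zfp521* (0.945), *Nid1* (0.925) and *Grb10* (0.921). *Creb1* was most like *Ccnt1* (0.919), *Nr3c1* (0.916) and *Msl2* (0.915), *Atf2* like *Kansl3* (0.921), *Epc2* (0.895) and *Pwwp2a* (0.894), *Crem* like *Birc2* (0.897), *Ing3* (0.886) and *Atg16l2* (0.862), and *Atf1* like *Gmeb2* (0.840), *Kdm3b* (0.824) and *Nup153* (0.817). *Atf6* was most like *Stat5a* (0.864), *Rhoh* (0.860) and *Dyrk1a* (0.852), *Atf4* like *Ddx3x* (0.865), *Ints6* (0.823) and *Nufip2* (0.820), and *Creb5* like *Egfr* (0.848), *Mt1* (0.832) and *Mir99ahg* (0.827). Among the members, *Creb1* and *Crem* had an r of 0.742 and *Creb3* and *Creb3l2* one of 0.670, while *Creb3* and *Atf1* had one of -0.620.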

How the data were processed

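Cells were sorted and 3 prime libraries of single cells made by the authors. The deposited values are counts, UMIs per gene and cell barcode. The submitters' processing notes name Cell Ranger 3.1.0, STAR and mm10, whereas the matrix header names Cell Ranger 9.0.0. Gene positions and spans came from GENCODE M21 (GRCm38), in which 1735 of the 33696 genes had no match. Cells were kept with at least 200 genes and 1000 UMIs, a log10 genes per log10 UMI of at least 0.7 and at most 5% mitochondrial and 5% hemoglobin UMIs. The cells with the highest Scrublet scores were removed as doublets at 0.8% per 1000 cells in place of DoubletFinder. Libraries of a sort were clustered together in scanpy 1.11.5 (2000 variable genes, 30 components, 20 neighbors, Leiden resolution 0.5), and clusters were named from marker lists as X-like. Counts were summed per library and type (at least 50 cells). Genes with at least 50 UMIs entered the counts past the fold and the lists, and ratios by cell type had no such minimum. On simulated counts for 7 dpi over uninjured, 99.5% of 200 changed genes among 16278 (Gli1+) passed the fold of 0.58 the right way. For Gli1- it was 100.0% of 200 among 16071. Of the unchanged genes, 2.26% (Gli1+) and 1.68% (Gli1-) passed it too. These shares cover counting error only, and variation between mice or libraries was not tested. In the mesenchymal cells themselves, 55.5% (Gli1+) and 50.4% (Gli1-) of all genes passed the same fold at 7 dpi. TMM factors came from edgeR 4.0.16. Of each list, the 3 highest and 3 lowest genes at 7 dpi in Gli1+ cells were named; *Crtc3*, *Crtc1* and *Sec24d* at other times, *Hspa5* and *Atf3* were added after their values were seen. The members, lists and the 2 alternatives marked as added were chosen with earlier results of these data known.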

Additional observations from a re-analysis of the deposited data

Results flagged for a closer look

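*Creb3l1* at 7 dpi over uninjured went in opposite directions in the 2 sorts of mesenchymal cells, with log2 ratios of -0.23 in Gli1+ and 1.25 in Gli1- cells. *Creb3l2* did so too, with -0.082 in Gli1+ and 0.21 in Gli1- cells. With 1 library per condition the difference was not tested in either case. Under TMM scaling the Gli1+ values became 0.07 and 0.22, the sign of the Gli1- values. In male cells alone, by CPM, *Creb3l1* was at -0.56 in Gli1+ and 1.28 in Gli1- cells. Without the clusters almost wholly from 1 library *Creb3l2* was at 0.20 in Gli1+ and -0.02 in Gli1- cells.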

How the results depend on the processing

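The log2 change over uninjured of the Creb3-type to Creb1-type ratio did not change direction under the alternatives. A change of the total, such as TMM scaling, cancels in this ratio and could not move it. Counts past the fold have no direction, and some of them moved. Over all cells, the log2 change of the ratio in the order Gli1+ 7 dpi, Gli1+ 21 dpi and Gli1- 7 dpi was 2.30, 2.48 and 1.42. With each cell weighing the same it was 0.55 (Gli1+ 21 dpi) and 1.28 (Gli1- 21 dpi), and in male cells only 0.36 (Gli1+ 7 dpi). A marker gate in place of clusters gave 1.38 and, without keratins (added after seeing the data), 1.40 for Gli1- 7 dpi. Without clusters holding over 90% of 1 library, also added, it was 0.32, 0.48, 1.15 and 1.10 (Gli1+ 7 and 21, Gli1- 7 and 21 dpi). These clusters held 6664 and 6527 of the Gli1+ and 2823 and 3760 of the Gli1- mesenchymal cells of 7 and 21 dpi. Members past the fold numbered 10 over all cells (Gli1+ 7 dpi), 6 and 3 without such clusters (Gli1+ 7 and 21 dpi), 3 under TMM (Gli1+ 21 dpi), and 2 (Gli1+ 21 dpi) and 4 (Gli1- 7 dpi) at a log2 fold of 1. Of these settings, the share of all genes past the fold was found only over all cells (60.7%). None of these counts is read as a result about the members. The causes of these shifts were not tested. TMM scaling moved all log2 values by 0.30, 0.46, 0.10 and 0.18. Of 450 values of single members under alternatives, 276 moved by less than their counting interval, 174 by more. The gate that bars keratin UMIs left 1 cell at Gli1+ 7 dpi, where 98.8% of mesenchymal cells held a *Krt14* UMI, so that gate, with or without cell filters, gave no value there. Male or female cells alone gave none where a library held 1 sex. No replicate could be left out. No paired analysis was made, since no condition has a second library and the values come from no test. A fit of sort and time over all 6 libraries, which would take the sorts as replicates of each other, was not run. Depth limits endothelial-like and mural-like cells of the Gli1+ libraries, with 117 to 542 cells each.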
